A study of Equus caballus with 45 samples.

Results

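The collagen genes are the 41 genes, of 20881 listed in each of the 2 count tables of the study, whose symbol consists of COL, a collagen type number, A and a chain number. All 41 were listed in both tables. They comprised 10 fibrillar collagen genes, 9 fibril-associated (FACIT) genes, 6 basement membrane genes, 5 beaded filament genes, 4 transmembrane genes, 3 short chain network genes, 2 multiplexin genes and 2 genes outside these classes (COL26A1 and COL28A1). COL5A3, COL7A1 and COL22A1 were not analysed here.

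Poly(A) RNA of equine cells was sequenced in 45 libraries, and the values are read counts per gene. Mesenchymal stromal cells (MSC, from sternal bone marrow) were untreated or exposed to the TLR3 agonist poly I:C, the STING agonist 2′3′cGAMP or CpG, each in cells of the donors labelled PC, 99 and 92 (12 libraries). The CpG condition is not described further in the sources used here. Synoviocytes, chondrocytes and macrophages (11 libraries each) were cultured with conditioned medium of resting MSC (resting MSC-CM), of TLR3 agonist activated MSC (TLR-MSC-CM) or of STING agonist activated MSC (STING-MSC-CM), in each case with IL-1b and TNF-a and with media of the 3 MSC donors labelled PC, ORC and AG1. The MSC-CM was given for 24 h, at 1 part to 3 parts of medium. By the study's methods the joint cells were then washed and cultured for a further 24 h before lysis. The MSC, too, were washed after the agonist and cultured on before lysis. RNA levels are thus those after removal of the additions. A single library per joint cell type received IL-1b and TNF-a only, and a single library received no addition. By sample label the macrophages received a lower dose of these cytokines than the other joint cells, while the study's methods give the same dose for all. If the labels hold, comparisons of macrophages with the other joint cells cannot separate this dose from the cell type. By the study's methods the joint cells of a type came from 1 horse, so the 3 replicates of a condition are media of 3 MSC donors on 1 cell isolate, and a cell type cannot be told apart from the horse and the culture it came from. The study's figure legends, however, call the joint cells biological replicates. The sample titles also give a donor label, ORC or PC, to libraries without MSC medium. What the label stands for there is not stated, and the labels are read here as donors of the medium. The synoviocytes and the chondrocytes had been expanded in culture, and the macrophages were derived from monocytes with M-CSF. By the study's methods the chondrocytes were of low passage and were meant for re-differentiation by an earlier protocol. By label, the medium donors and the sequenced MSC donors overlap only in PC.

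The libraries held 23525704 to 54103873 counts. Levels are given in CPM, which is the count scaled to a fixed library total, and since a CPM value also depends on the length of the transcript, levels are compared only for 1 gene between libraries. Fold changes are on the log2 scale from edgeR fits with TMM scaling, with the standard error (SE). A gene is called where its p-value, adjusted by the method of Benjamini and Hochberg over all genes tested, is under 0.05. No libraries of a group were alike within counting noise. In these cultures fewer cells of a type and less RNA per cell cannot be told apart.

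Collagens are proteins of 3 chains wound into a triple helix. Fibrillar collagens (types I, II, III, V and XI) form the cross-striated fibrils of tendon, synovium and cartilage, and FACIT collagens sit on the surface of these fibrils. Type IV collagens form the network of basement membranes, type VI collagens the beaded microfibrils around cells, and the multiplexins XV and XVIII lie next to basement membranes. Type II collagen, with types IX and XI, is the collagen of hyaline cartilage, whereas chondrocytes grown in monolayer are known to shift to types I and III.

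Together, collagen genes took 11.7% to 14.8% of all counts in synoviocytes, 6.67% to 12% in chondrocytes, 5.29% to 11.4% in MSC and 0.00598% to 0.0106% in macrophages. Of the 41 genes, 20 had a median over 1 CPM in synoviocytes, 20 in chondrocytes, 21 in MSC and 13 in macrophages. At most 3 counts in any library were found for 7 genes in synoviocytes, 9 in chondrocytes, 9 in MSC and 11 in macrophages. COL19A1 had 0 counts in all synoviocyte, chondrocyte and MSC libraries, and COL25A1 in all synoviocyte and chondrocyte libraries.

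**Figure D1:**
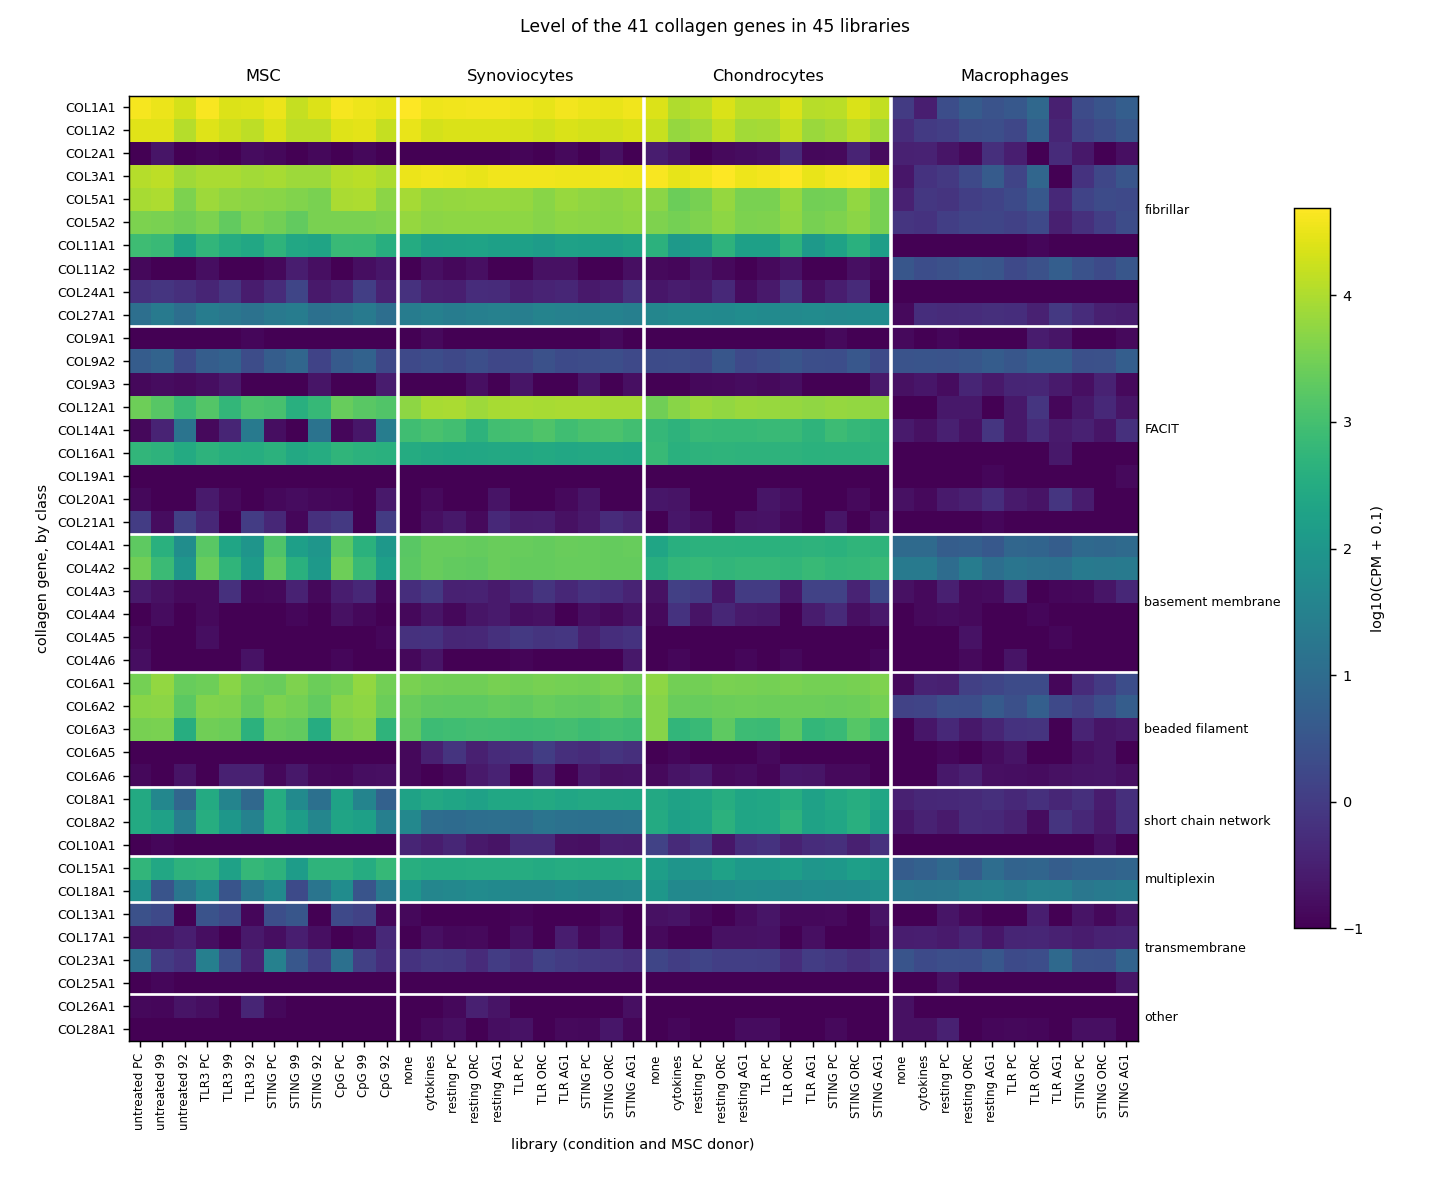
Levels of the 41 collagen genes (rows, grouped by class) in the 45 libraries (columns, by cell type, condition and MSC donor), as log10 of CPM plus 0.1. The fibrillar genes COL1A1, COL1A2 and COL3A1 are bright in MSC, synoviocytes and chondrocytes, and the macrophage columns are dark apart from a few basement membrane, multiplexin, FACIT, transmembrane and fibrillar rows.

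Fibrillar collagens made up 81.2% to 87.4% of collagen counts in synoviocytes, 78.3% to 85.6% in chondrocytes and 80.2% to 88.3% in MSC. In macrophages they made up 8.46% to 27.5%, while the multiplexins held 30.9% to 46.3% and the basement membrane collagens 17% to 47.0%. FACIT collagens held 4.35% to 8.83% in synoviocytes, 3.66% to 9.91% in chondrocytes, 1.28% to 2.88% in MSC and 4.16% to 7.91% in macrophages. Beaded filament collagens held 4.46% to 5.64% in synoviocytes, 6.58% to 12.5% in chondrocytes, 8.41% to 16.9% in MSC and 1.79% to 7.44% in macrophages. Basement membrane collagens held 2.39% to 3.79% in synoviocytes, 0.521% to 1.66% in chondrocytes and 0.298% to 4.14% in MSC. The macrophage libraries therefore stood apart both in the collagen total and in its makeup, and the stromal cell types shared a mostly fibrillar makeup. The class shares add counts of genes of unequal length and describe the libraries, not the matrix.

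By condition, the class totals as a share of all counts of a library were most even in synoviocytes. There the fibrillar genes took 12.9% with no addition and 10.5% with the cytokines only, 10.6% to 11.2% with resting MSC-CM, 9.46% to 11.1% with TLR-MSC-CM and 9.93% to 10.6% with STING-MSC-CM. The FACIT genes took 0.644%, 1.02%, 0.799% to 1.05%, 1.03% to 1.06% and 0.976% to 1.08% in the same order, and the beaded filament genes 0.804%, 0.592%, 0.567% to 0.636%, 0.584% to 0.657% and 0.572% to 0.669%. The basement membrane genes took 0.354%, 0.462%, 0.428% to 0.483%, 0.442% to 0.480% and 0.449% to 0.460%. The no addition library was thus the highest in fibrillar and beaded filament genes and the lowest in FACIT and basement membrane genes, and the media with MSC products overlapped in all 4 classes.

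In chondrocytes the same library stood in the same place for 3 of these classes. The beaded filament genes took 1.42% with no addition, 0.604% with the cytokines only and 0.608% to 0.792% over all MSC-CM libraries, the FACIT genes 0.416%, 0.575% and 0.645% to 0.788%, and the basement membrane genes 0.0592%, 0.0981% and 0.0987% to 0.123%. The fibrillar genes took 9.38% with no addition and 5.34% with the cytokines only, and with MSC-CM they took 9.17% to 10.2% in the 3 libraries of donor ORC and 5.70% to 6.95% in the other 6. In MSC the fibrillar genes took 4.66% (donor 92), 8.86% (donor 99) and 9.35% (donor PC) untreated, 5.65%, 6.03% and 8.90% with the TLR3 agonist, 5.17%, 4.27% and 7.41% with the STING agonist and 6.48%, 9.11% and 9.11% with CpG. Donor 92 was the lowest untreated and donor 99 the lowest with the STING agonist. The MSC basement membrane genes took 0.0158% to 0.0271% in donor 92, 0.0568% to 0.116% in donor 99 and 0.320% to 0.471% in donor PC, with no overlap between donors in any condition.

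For single genes the order of the cell types depended on the chain, and these values are given side by side without a test for MSC, whose table is separate. COL1A1 was at 29790 CPM (lowest), 36494 (median) and 48947 (highest) in synoviocytes, at 15352, 31622 and 42507 CPM in MSC and at 10338, 13472 and 25183 CPM in chondrocytes. The MSC range overlapped both others. COL3A1 was at 31551, 36000 and 37010 CPM in synoviocytes, at 28611, 38769 and 49092 CPM in chondrocytes and at 7186, 9392 and 13458 CPM in MSC, with MSC below both joint cell types in every library. COL12A1, whose protein links fibrils to other matrix, followed the order of synoviocytes (median 8786 CPM), chondrocytes (6019 CPM) and MSC (1285 CPM), and its highest MSC library, at 2724 CPM, was below the lowest chondrocyte library, at 2855 CPM. COL14A1 had medians of 950 and 647 CPM in synoviocytes and chondrocytes and reached at most 25.6 CPM in MSC. COL16A1, by contrast, had medians of 470 CPM in chondrocytes, 431 CPM in MSC and 267 CPM in synoviocytes. COL6A1 overlapped between the 3 stromal cell types, with medians of 3080, 3394 and 3110 CPM in synoviocytes, chondrocytes and MSC. COL27A1 was highest in chondrocytes (40.5 to 58.1 CPM), lower in synoviocytes (24.3 to 35.6 CPM) and lowest in MSC (11.1 to 25.0 CPM), and the ranges of the last 2 overlapped.

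The genes with few counts also differed by cell type. COL6A5 had 1 to 26 counts in synoviocytes, 0 to 2 in chondrocytes, 0 to 3 in macrophages and 0 in MSC, and COL4A5 had 6 to 35 counts in synoviocytes and at most 3 in any other library. COL11A2 had 51 to 184 counts in macrophages and at most 7 in any other library. COL13A1 had up to 136 counts in MSC and at most 8 elsewhere, COL21A1 up to 53 in MSC and at most 12 elsewhere, and COL24A1 4 to 55 in MSC, 4 to 23 in synoviocytes, 0 to 20 in chondrocytes and 0 in macrophages. COL4A4, COL4A6, COL6A6, COL9A1, COL9A3, COL17A1, COL19A1, COL20A1, COL25A1, COL26A1 and COL28A1 had at most 25 counts in any of the 45 libraries. Genes enter a fit with a total of at least 10 counts over its libraries. The cell type comparisons tested 36 of the 41, leaving out COL4A6, COL9A1, COL13A1, COL19A1 and COL25A1, and the comparisons within a cell type tested 34 in synoviocytes, 32 in chondrocytes, 31 in MSC (32 with the CpG libraries) and 30 in macrophages.

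The chondrocyte label was checked on its defining collagens. COL2A1, which encodes the chain of type II collagen, had 0 to 12 counts per chondrocyte library, with the highest count in the library with TLR-MSC-CM of donor ORC. Counts of COL9A1 were 0 to 1, those of COL11A2 0 to 3, those of COL10A1 (type X collagen, of hypertrophic chondrocytes) 3 to 32 and those of COL9A2 49 to 123. COL2A1, COL9A1, COL10A1 and COL11A2 were thus near or at 0, whereas COL9A2 was at 1.60 to 3.42 CPM, COL11A1 at 117 to 512 CPM and COL27A1 at 40.5 to 58.1 CPM. The summed level of 7 cartilage marker genes that are not collagens was 42.3 to 323 CPM in chondrocytes against 8.84 to 23.2 CPM in synoviocytes, 16.5 to 66.4 CPM in MSC and 0.617 to 1.41 CPM in macrophages, and overlapped between chondrocytes and MSC. ACAN, the core protein of the main cartilage proteoglycan, was at 6.12 to 101 CPM in chondrocytes, above every library of the other cell types, and at 0.477 to 3.47 CPM in synoviocytes. COMP, at 15.6 to 170 CPM, also lay above them. The other markers of the list did not: SOX9 had a median of 10.3 CPM in chondrocytes and 30.1 CPM in MSC. MATN3 had medians of 0.278 CPM in chondrocytes and 2.02 CPM in synoviocytes. CHAD overlapped between the cell types, and HAPLN1 and SNORC had at most 12 counts in any library.

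Chondrocytes were compared with synoviocytes in the 3 libraries of each with resting MSC-CM, to show how the collagen genes of these joint cells differ under the same medium. Called in this comparison were 10 of 36 tested collagen genes, 3 higher and 7 lower in chondrocytes (edgeR quasi-likelihood test). Over all 15599 genes tested, 2831 were called (18.1%), 8.31% higher and 9.84% lower. By class, the called genes were 3 of 5 basement membrane genes (all lower), 3 of 10 fibrillar genes (1 higher, 2 lower), 1 of 7 FACIT genes (higher), 1 of 3 short chain network genes (higher), 1 of 2 multiplexins (lower) and 1 of 5 beaded filament genes (lower). The median log2 fold change over the 36 genes was 0.09, and it ranged from -0.27 to 0.13 over the alternative settings, which includes a change of sign.

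**Figure D2:**
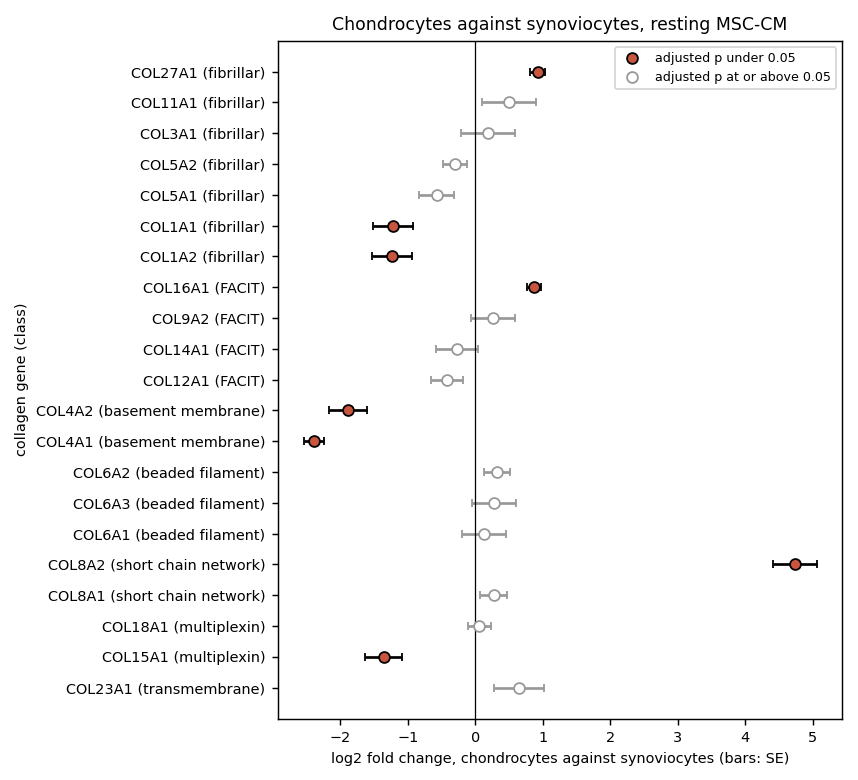
Log2 fold change of chondrocytes against synoviocytes with resting MSC-CM (horizontal axis, bars are the SE) for the collagen genes with a mean of at least 1 CPM in either group, ordered by class. Filled points are genes with an adjusted p under 0.05: COL8A2 lies at 4.73 and COL4A1 at -2.39, and COL1A1 and COL1A2 lie near -1.2, while COL3A1 lies near 0.

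COL4A1 and COL4A2 encode the chains of the common type IV collagen of basement membranes, and their genes lie next to each other. With resting MSC-CM, COL4A1 was at 433, 462 and 454 CPM in chondrocytes (media of donors AG1, ORC and PC) and at 2424, 2234 and 2352 CPM in synoviocytes. The groups lay far apart, with a log2 fold change of -2.39 ± 0.15 (SE, n = 3, edgeR adjusted p = 4.9e-06). COL4A2 was at 618, 546 and 642 CPM against 2405, 2043 and 2153 CPM, a log2 fold change of -1.89 ± 0.28 (SE, n = 3, edgeR adjusted p = 0.00108). The third basement membrane gene called, COL4A5, had 0 counts in the chondrocyte libraries and 9 to 16 in the synoviocyte libraries, and was at least 3.86-fold lower against a floor of 3 counts per library. COL4A5 had 0 counts in the other chondrocyte libraries as well. The ratio of COL4A1 to COL4A2 counts did not overlap between these cell types: it was 0.687 to 0.847 over the 9 chondrocyte libraries with MSC-CM and 0.977 to 1.09 over those of synoviocytes.

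The short chain network collagen of type VIII showed unequal chains. COL8A2 was at 224, 454 and 201 CPM in chondrocytes and at 11.7, 11.6 and 9.57 CPM in synoviocytes, a log2 fold change of 4.73 ± 0.32 (SE, n = 3, edgeR adjusted p = 8.8e-06). Its partner chain COL8A1 was at 225, 346 and 218 CPM against 249, 177 and 220 CPM, with overlapping groups and a log2 fold change of 0.27 ± 0.20 (SE, n = 3, edgeR adjusted p = 0.386). Type VIII collagen is best known from subendothelial matrix and the corneal Descemet membrane. COL8A2 was also the member with the highest fold change among those called. The cell types stayed apart in this gene over all conditions, though its level varied within each. The lowest chondrocyte library was at 169 CPM and the highest synoviocyte library, that with no addition, at 45.3 CPM.

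Type I collagen was lower in chondrocytes in both chains. COL1A1 was at 13466, 23781 and 12441 CPM against 39165, 39660 and 36494 CPM, with a log2 fold change of -1.22 ± 0.30 (SE, n = 3, edgeR adjusted p = 0.0171). COL1A2 was at 8092, 14379 and 7833 CPM against 23810, 23658 and 23273 CPM, with a log2 fold change of -1.23 ± 0.29 (SE, n = 3, edgeR adjusted p = 0.0154). The groups did not overlap in either gene, and the chondrocyte library with medium of donor ORC was the one nearest to the synoviocytes. The calls of these 2 genes were lost when a chondrocyte library with medium of donor PC or AG1 or the synoviocyte library of donor PC was left out (adjusted p 0.0528 to 0.0780), and that of COL1A1 also without the synoviocyte library of donor AG1 (0.0542). Without the ORC libraries the log2 fold change of COL1A1 was -1.59.

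COL3A1, the chain of type III collagen, which mixes with type I in fibrils, was at 35536, 46838 and 36165 CPM in chondrocytes and at 36954, 31551 and 34429 CPM in synoviocytes. Its log2 fold change was 0.19 ± 0.41 (SE, n = 3, edgeR adjusted p = 0.812). The balance of both fibril collagens differed between the cell types without overlap. Over the 9 libraries with MSC-CM the ratio of COL3A1 to COL1A1 counts was 1.88 to 3.10 in chondrocytes and 0.796 to 1.23 in synoviocytes, and it was 0.222 to 0.468 in MSC. By contrast the ratio of COL1A1 to COL1A2 was 1.48 to 1.87, 1.56 to 1.68 and 1.13 to 1.94, in the same order, and overlapped in all 3.

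The remaining fibrillar genes differed little or passed the test with small changes. COL27A1, a fibrillar collagen of cartilage, was at 58.1, 51.3 and 53.7 CPM in chondrocytes and at 31.6, 28.6 and 24.8 CPM in synoviocytes, a log2 fold change of 0.93 ± 0.11 (SE, n = 3, edgeR adjusted p = 0.000265). COL5A1, a chain of the type V collagen that starts fibrils, had a log2 fold change of -0.57 ± 0.26 (SE, n = 3, edgeR adjusted p = 0.165) with all chondrocyte libraries below all synoviocyte libraries (3374 to 6163 against 6303 to 6501 CPM). The changes of COL5A2 and COL11A1 were -0.30 ± 0.18 and 0.50 ± 0.40, and both genes overlapped between the groups. COL24A1 (0 to 20 counts in chondrocytes with MSC-CM, 4 to 23 in synoviocytes), COL11A2 and COL2A1 were too low for levels to be read.

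Among the FACIT genes only COL16A1 was called of the 7 tested. It was at 473, 491 and 467 CPM in chondrocytes and at 278, 256 and 245 CPM in synoviocytes, a log2 fold change of 0.87 ± 0.10 (SE, n = 3, edgeR adjusted p = 0.000798). COL12A1, the most counted FACIT gene here, was at 5882 to 6739 CPM against 7248 to 9318 CPM, a log2 fold change of -0.42 ± 0.24 (SE, n = 3, edgeR adjusted p = 0.269, DESeq2 adjusted p = 0.0253). COL14A1, a related FACIT of dense connective tissue, was at 647, 661 and 672 CPM in chondrocytes and at 950, 481 and 913 CPM in synoviocytes, with a log2 fold change of -0.26 ± 0.31. The synoviocyte library with resting medium of donor ORC was the low one.

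Of the multiplexins, COL15A1 was at 113, 176 and 99.3 CPM in chondrocytes and at 337, 330 and 323 CPM in synoviocytes, a log2 fold change of -1.36 ± 0.28 (SE, n = 3, edgeR adjusted p = 0.00686). COL18A1, whose protein releases endostatin, was at 46.1 to 61.1 CPM against 45 to 54.7 CPM, with a log2 fold change of 0.06 ± 0.17 (SE, n = 3, edgeR adjusted p = 0.867). In the beaded filament class the 3 main chains of type VI collagen were not called: the log2 fold changes were 0.13 ± 0.32 for COL6A1, 0.33 ± 0.19 for COL6A2 and 0.28 ± 0.32 for COL6A3. COL6A5, a further type VI chain, had 0 counts in chondrocytes and 6 to 18 in synoviocytes, and was at least 4.21-fold lower.

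**Figure D3:**
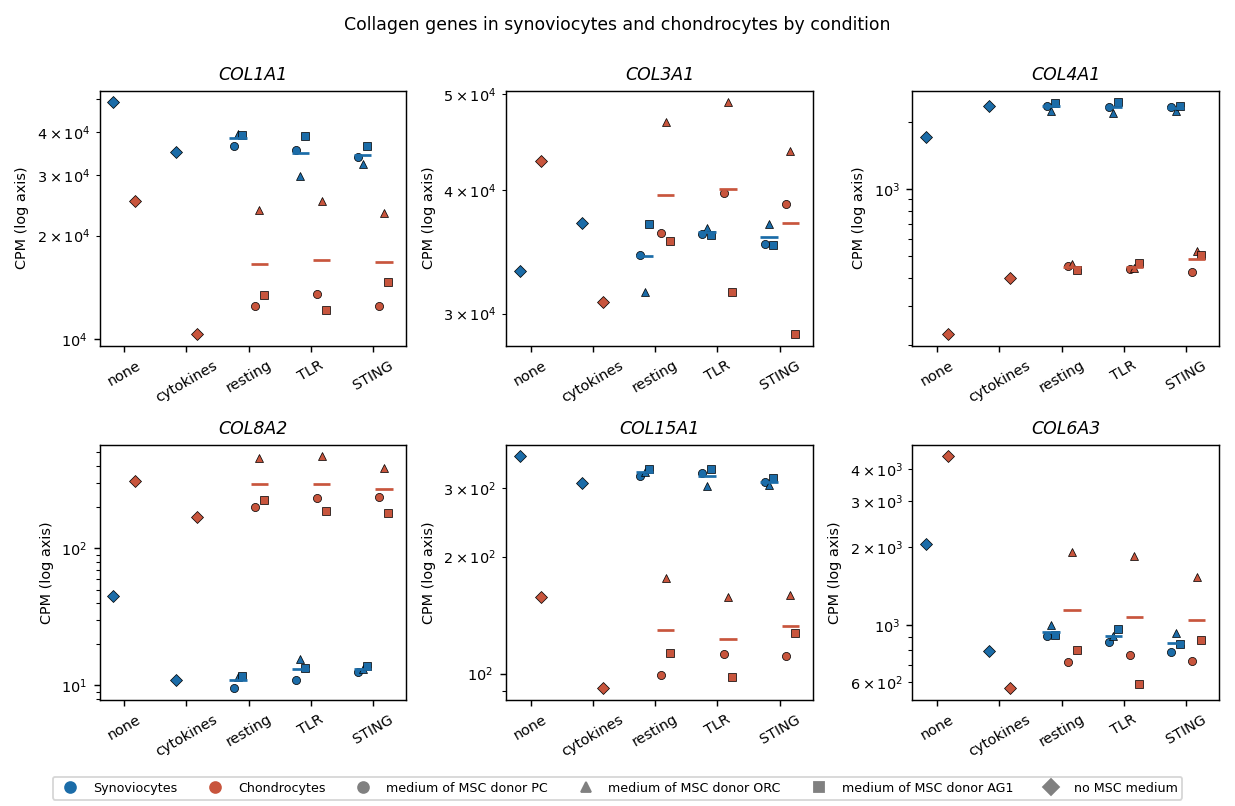
CPM (log axis) of 6 collagen genes in synoviocytes (blue) and chondrocytes (red) by condition, with a marker shape for the MSC donor of the medium and a line at the mean of each group of 3. In COL4A1, COL8A2 and COL15A1 the cell types keep apart in every condition, and in COL1A1 and COL6A3 the chondrocyte libraries with medium of donor ORC lie above those of the other donors.

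Within the chondrocytes, the 3 libraries with media of donor ORC lay above the 6 with media of donors PC and AG1 in 12 of the 32 collagen genes with at least 10 counts over these libraries, whichever agonist the MSC had received, against 15.2% of all 14304 genes with as many counts. COL11A1, a chain of the type XI collagen found inside fibrils, was at 410 to 512 CPM with ORC media and at 117 to 189 CPM with the others. COL6A3 was at 1532 to 1913 against 593 to 873 CPM, COL8A2 at 388 to 468 against 181 to 237 CPM, and COL1A1 at 23263 to 25169 against 12142 to 14647 CPM. COL1A2, COL3A1, COL5A1, COL5A2, COL8A1, COL9A2, COL15A1 and COL24A1 were above the other libraries as well. Below them were 3 of the 32, against 22.1% of all genes: COL4A3, at 0.119 to 0.260 against 0.815 to 1.67 CPM, and COL10A1 and COL13A1, which had few counts. The basement membrane pair COL4A1 and COL4A2 and the FACIT genes COL12A1, COL14A1 and COL16A1 overlapped between the donors' media. These groups were set by the donor of the medium after the libraries had been seen to stand apart, and no test was made. The sample titles also give the label ORC to the chondrocyte libraries without MSC medium, so whether it stands for the medium alone is not known.

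The IL-1b and TNF-a only library and the no addition library exist once per cell type, so their differences have no replicate check. A difference is counted here where the ratio of TMM scaled levels, with 0.5 CPM added to each, was at least 2-fold, and the folds given are these ratios. In chondrocytes 6 of 24 collagen genes with enough counts differed by this measure, against 9.25% of the 12865 genes compared, and the count was 7 with total count scaling and 4 with 2 CPM added. COL6A3 was at 4483 CPM (116177 counts) with no addition and at 569 CPM (22520 counts) with the cytokines, 7.63-fold lower. Type VI collagen needs this chain to assemble. COL11A1 was at 445 and 119 CPM (3.61-fold lower), COL1A2 at 16355 and 6286 CPM (2.52-fold lower) and COL1A1 at 25183 and 10338 CPM (2.36-fold lower). The libraries with MSC-CM of donor ORC also received the cytokines, yet lay near the no addition library in COL11A1, COL1A2 and COL1A1, though not in COL6A3. They were at 410 to 512 CPM for COL11A1, 13338 to 15822 CPM for COL1A2 and 23263 to 25169 CPM for COL1A1. Libraries with the other donors' media were at 117 to 189, 6786 to 8547 and 12142 to 14647 CPM. For COL6A3 the ORC libraries were at 1532 to 1913 CPM, well below the no addition library, and the others at 593 to 873 CPM. COL4A3 and COL4A4, neighbouring basement membrane genes, had 2 and 1 counts with no addition and 43 and 23 counts with the cytokines, and their ratios of 2.74 and 2.00 became 1.48 and 1.26 with 2 CPM added. The 4 lower genes are thus fibrillar or beaded filament genes with many counts, and the 2 higher ones had few.

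In synoviocytes 3 of 24 collagen genes differed at least 2-fold between the same conditions, against 4.02% of 12927 genes. COL6A3 was at 789 CPM with the cytokines and at 2050 CPM with no addition (2.57-fold lower), COL8A2 at 10.9 and 45.3 CPM (3.98-fold lower) and COL18A1 at 40.1 and 95.3 CPM (2.34-fold lower). COL6A3 was therefore lower with the cytokines in the single libraries of both stromal joint cell types, while its partner chain COL6A1 was at 3070 against 5188 CPM in chondrocytes and at 3080 against 3527 CPM in synoviocytes. The ratio of COL6A3 to COL6A1 counts was 0.864 with no addition and 0.185 with the cytokines in chondrocytes, and 0.581 and 0.256 in synoviocytes. With MSC-CM, which also held the cytokines, it was 0.183 to 0.554 and 0.257 to 0.355, below the no addition library in every case. COL12A1 differed in the other direction without reaching 2-fold, with 2855 CPM (no addition) and 4852 CPM (cytokines) in chondrocytes and 5226 and 8786 CPM in synoviocytes.

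Against the cytokines only library, the mean of the resting MSC-CM libraries differed at least 2-fold in 0 of 25 collagen genes in synoviocytes (background 0.0312% of 12800 genes). In chondrocytes 2 of 24 differed (background 0.923% of 12788 genes), both higher: COL6A3 at a mean of 1143 against 569 CPM and COL11A1 at a mean of 266 against 119 CPM. Both means were carried by the library with ORC medium, since the AG1 and PC libraries were at 796 and 719 CPM for COL6A3 and at 169 and 149 CPM for COL11A1.

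The media of activated MSC were compared with resting MSC-CM to ask whether activation of the MSC changed the collagen genes of the cells that received the medium. In synoviocytes 0 of 34 collagen genes were called with TLR-MSC-CM, 0 with STING-MSC-CM and 0 between these media (edgeR), with a background of 0% of 14584 genes in each. DESeq2 called 2, 0 and 0 genes in the same order, with 0 collagen genes in each. At an unadjusted p under 0.05 there were 2, 2 and 0 collagen genes of the 34, against 10%, 7.6% and 2.02% of all genes. COL14A1 was at 905, 1345 and 1014 CPM with TLR-MSC-CM (donors AG1, ORC and PC) and at 922, 1231 and 1120 CPM with STING-MSC-CM, against 950, 481 and 913 CPM with resting MSC-CM. Its log2 fold changes were 0.47 ± 0.21 (SE, n = 3, edgeR adjusted p = 0.496) and 0.47 ± 0.21 (SE, n = 3, edgeR adjusted p = 0.634), the groups overlapped, and the low resting library was that of donor ORC. COL8A1 had log2 fold changes of 0.25 ± 0.11 with TLR-MSC-CM and 0.25 ± 0.11 with STING-MSC-CM. COL26A1, the other gene past the unadjusted threshold with TLR-MSC-CM, had 1 to 6 counts per library with resting MSC-CM and 0 with TLR-MSC-CM. Between the activated media, COL4A5 and COL26A1 had the lowest unadjusted p (0.135 and 0.157), and both had few counts. Over the 20 collagen genes with a mean over 1 CPM, the log2 fold change with TLR-MSC-CM ranged from -0.19 in COL11A1 to 0.47 in COL14A1, with a median SE of 0.0972.

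In chondrocytes 0 of 32 collagen genes were called with TLR-MSC-CM, STING-MSC-CM or between them (edgeR without a block, background 0% of 14304 genes, DESeq2 0 collagen genes in each). In this fit 0 had an unadjusted p under 0.05 in any of the 3 comparisons, against 0.559%, 0.909% and 0.811% of all genes. The lowest p values were those of COL2A1 (0.116) and COL23A1 (0.200) with TLR-MSC-CM, of COL23A1 (0.0756) and COL18A1 (0.158) with STING-MSC-CM, and of COL6A6 (0.191) and COL18A1 (0.326) between them. COL18A1 was at 73.7, 57.7 and 54.6 CPM with STING-MSC-CM (donors AG1, ORC and PC) and at 61.1, 51.9 and 46.1 CPM with resting MSC-CM, higher with each donor's medium by a log2 fold change of 0.20 ± 0.13. COL23A1, a transmembrane collagen, was at 13 to 33 counts with STING-MSC-CM and at 26 to 41 counts with resting MSC-CM. The median SE over collagen genes with a mean over 1 CPM was 0.255 with TLR-MSC-CM, wider than in synoviocytes. With the donor of the medium as a block, edgeR called 0, 2 and 0 genes in the 3 comparisons, with 0 collagen genes in each. In that fit 0, 3 and 0 of the 32 collagen genes had an unadjusted p under 0.05. The share of all genes was not taken for these, so nothing is drawn from the counts.

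In MSC, several collagen genes differed between donors in all 4 conditions. COL4A1 was at 1308 to 1891 CPM in the 4 libraries of donor PC, at 167 to 426 CPM in those of donor 99 and at 61.3 to 107 CPM in those of donor 92. COL4A2 followed the same order, at 1888 to 2820, 400.4 to 747 and 96.2 to 164 CPM, as did COL8A1, at 192 to 333, 36.9 to 53.1 and 5.67 to 12.3 CPM. The order differed in other genes. COL18A1 was lowest in donor 99 (1.77 to 2.96 CPM), at 15.8 to 18.8 CPM in donor 92 and at 51.5 to 75.4 CPM in donor PC. COL14A1 had 411 to 1038 counts in donor 92, 0 to 14 in donor 99 and 1 to 2 in donor PC. COL6A3 was at 333 to 511 CPM in donor 92 and at 2057 to 4284 CPM in the others, and COL13A1, a transmembrane collagen, had 0 to 1 counts in donor 92. COL1A1 of donor 99, at 15352 to 36001 CPM, overlapped that of both other donors, while donor PC (33841 to 42507 CPM) lay above donor 92 (20684 to 30057 CPM). These are values of 3 donors and were not tested.

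**Figure D4:**
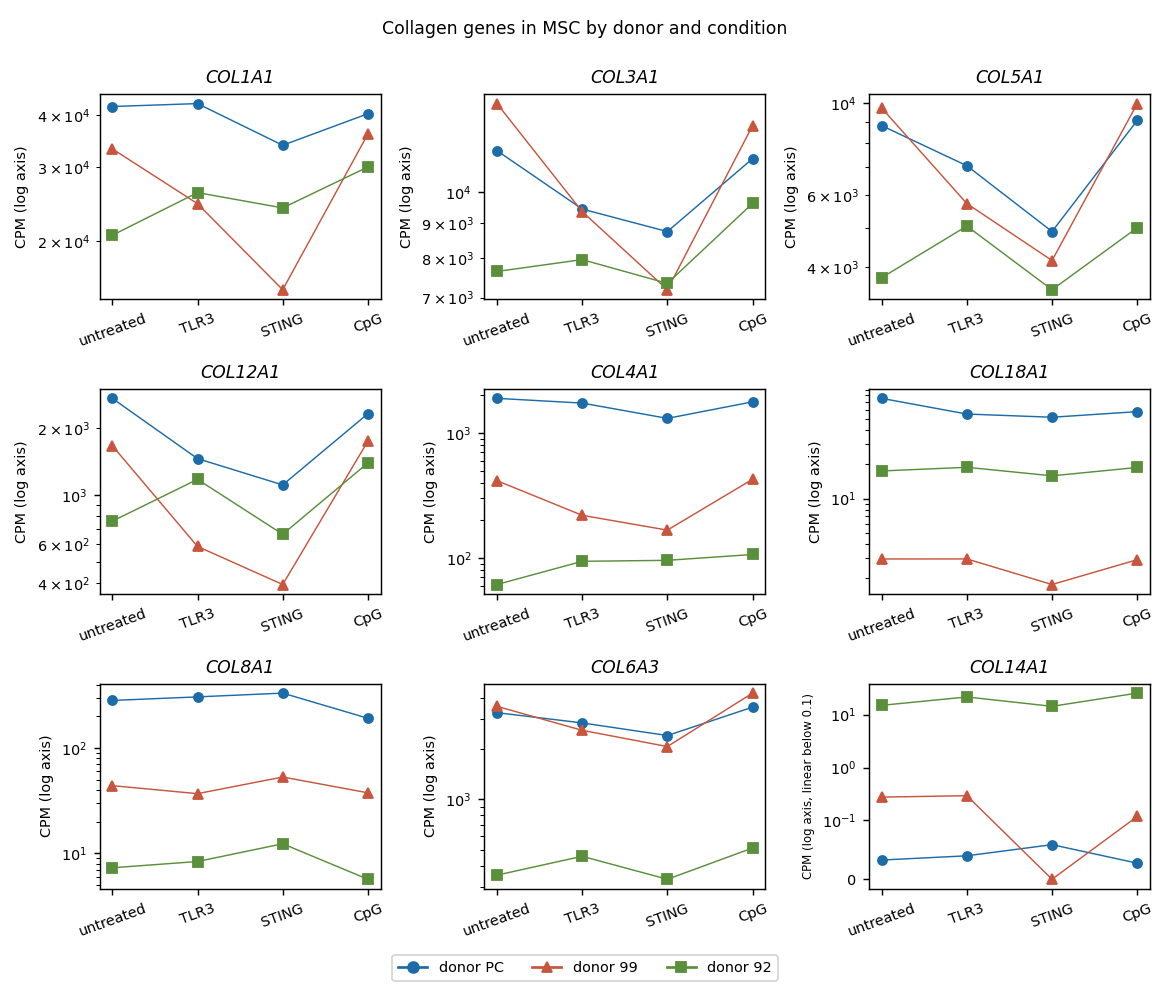
CPM of 9 collagen genes in MSC by condition (horizontal axis) with a line and marker per donor, on log axes (linear below 0.1 for COL14A1). The donor lines of COL4A1, COL8A1 and COL18A1 do not cross, and COL12A1, COL5A1 and COL3A1 lie lower with the STING agonist than untreated in each donor.

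With the STING agonist, 0 of 31 collagen genes were called against untreated MSC (edgeR, background 0% of 14872 genes), and 2 had an unadjusted p under 0.05, against 2.1% of all genes. DESeq2 called 95 genes, 0 of them collagen genes. COL12A1 was at 665, 395 and 1110 CPM with the STING agonist and at 762, 1667 and 2724 CPM untreated (donors 92, 99 and PC), with a log2 fold change of -1.27 ± 0.54 (SE, n = 3, edgeR adjusted p = 1). COL5A1 was at 3532, 4158 and 4890 CPM against 3778, 9752 and 8837 CPM, a log2 fold change of -0.84 ± 0.37 (SE, n = 3, edgeR adjusted p = 1). In both genes donor 92 had nearly equal levels, and donors 99 and PC had much lower levels with the agonist. On TMM scaled levels, which the counts by donor use, 8 of the 31 genes were lower in all 3 donors, against 13.1% of all genes tested: the fibrillar genes COL3A1, COL5A1 and COL11A1, the FACIT genes COL12A1 and COL21A1, the beaded filament gene COL6A3, the multiplexin COL18A1, and COL26A1. Of these, COL21A1 and COL26A1 had few counts. In donors 92, 99 and PC, COL26A1 had 0, 0 and 1 counts with the STING agonist and 5, 1 and 1 untreated. COL21A1 had 15, 1 and 11 counts against 53, 2 and 29. COL3A1 was at 7342, 7186 and 8743 CPM against 7643, 13458 and 11485 CPM, and COL11A1 at 205, 256 and 501 CPM against 216, 728 and 841 CPM. Higher in all 3 donors were 3 of the 31, COL8A1, COL23A1 and COL27A1, against 14.1% of all genes tested, with COL23A1 at 1.02, 3.38 and 31.3 CPM against 0.559, 0.857 and 12.8 CPM. The median log2 fold change over the 31 genes was -0.32, with a range of -0.57 to -0.13 over the alternative settings, and that over all genes tested was 0.01.

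The donor labels pair the MSC libraries, since libraries of 1 donor are cells of 1 horse. With the donor as a block, 2 genes were called with the STING agonist, 0 of them collagen genes. Of the 31 collagen genes, 8 had an unadjusted p under 0.05, against 9.48% of all genes, with COL12A1 at -1.28 ± 0.34 (SE, n = 3, edgeR adjusted p = 0.218) and COL5A1 at -0.76 ± 0.21 (SE, n = 3, edgeR adjusted p = 0.231). The other 6 were COL3A1, COL6A3, COL11A1 and COL18A1, which were lower, and COL8A1 and COL23A1, which were higher. In the other MSC comparisons the block also left 0 collagen genes called. There 4 of 31 collagen genes between the agonists, 1 of 31 with the TLR3 agonist and 1 of 32 with CpG had an unadjusted p under 0.05. The share of all genes was not taken for these, so nothing is drawn from the counts.

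With the TLR3 agonist, 0 of 31 collagen genes were called against untreated MSC (edgeR, background 0% of 14872 genes) and 0 had an unadjusted p under 0.05, against 1.15% of all genes. DESeq2 called 52 genes, 0 of them collagen genes. Lower in all 3 donors were 2 of the 31 (COL17A1 and COL21A1, both with few counts), against 6.75% of all genes tested, and higher in all 3 were 3 of the 31 (COL9A2, COL13A1 and COL14A1), against 8.61%. Of these, COL9A2 was higher in donor 99 only after TMM scaling, with 6.16 CPM against 6.28 CPM. The lowest unadjusted p values were those of COL20A1 (0.123), which had 0 to 8 counts, and COL12A1 (0.260), which was at 1176, 586 and 1458 CPM against 762, 1667 and 2724 CPM, with donor 92 going against the other donors. Between the agonists 0 of 31 genes were called (edgeR without the donor block, background 0%), and 0 had an unadjusted p under 0.05, against 0.242% of all genes. DESeq2 called 1 gene, which was not a collagen gene. In this comparison 15 of 31 collagen genes were lower with the STING agonist than with the TLR3 agonist in all 3 donors, against 13% of all genes tested. They were COL1A1, COL1A2, COL3A1, COL5A1, COL5A2 and COL11A1 of the fibrillar class, COL12A1 and COL16A1 of the FACIT class, COL4A1 and COL4A2, COL6A1, COL6A2 and COL6A3, and both multiplexins. COL4A1 counts among them only after TMM scaling, since in donor 92 it was at 95.7 CPM with the STING agonist and at 94.0 CPM with the TLR3 agonist. Higher in all 3 donors were 2 of the 31, COL8A1 and COL23A1, against 13.2% of all genes tested. COL1A1 was at 24023, 15352 and 33841 CPM with the STING agonist and at 26120, 24586 and 42507 CPM with the TLR3 agonist. Both comparisons use the same STING agonist libraries, so their counts are not independent, and several of these genes share a chain complex. COL26A1 and COL5A1 had the lowest unadjusted p between the agonists (0.0916 and 0.159).

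With CpG, 0 of 32 collagen genes were called (edgeR, background 0% of 15099 genes, DESeq2 0 collagen genes) and 0 had an unadjusted p under 0.05, against 0.305% of all genes. COL26A1 (0 counts against 1 to 5 per untreated library) and COL20A1 (0 to 6 counts against 0 to 1) had the lowest p (0.0587 and 0.181). Among the 22 collagen genes with a mean over 1 CPM the median SE in MSC was 0.550 with the TLR3 agonist.

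Macrophages held little collagen transcript, and its makeup by class differed from that of the stromal cells, as given above. The 11 listed macrophage markers summed to 8833 to 12151 CPM in macrophages and to 9.12 to 325 CPM in the other cell types. Against synoviocytes with resting MSC-CM, 31 of 36 collagen genes were called (edgeR), 25 lower and 6 higher in macrophages. Over all 15599 genes tested the share called was 71.6%, with 35.1% lower and 36.6% higher. COL1A1 was at 2.82, 4.17 and 2.10 CPM in macrophages (media of donors AG1, ORC and PC), a log2 fold change of -13.68 ± 0.49 (SE, n = 3, edgeR adjusted p = 2.6e-09). COL5A1 and COL5A2 differed by -12.69 ± 0.43 and -12.01 ± 0.28 on the log2 scale, and COL12A1, also called lower, had 0 to 5 counts in these macrophage libraries. COL16A1 and COL11A1 had 0 counts in these macrophage libraries and were at least 2765-fold and at least 2003-fold lower.

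The basement membrane pair and the multiplexins differed less than COL1A1, COL5A1 and COL5A2, but not less than all genes of other classes. Over the settings tried, the log2 fold change was -6.23 to -5.92 for COL27A1 and -9.31 to -8.95 for COL8A1. COL4A1 had a mean of 4.57 CPM against 2337 CPM (log2 fold change -9.03 ± 0.21), COL4A2 of 15.1 against 2201 CPM (-7.22 ± 0.36) and COL15A1 of 8.06 against 330 CPM (-5.37 ± 0.33). COL18A1 came nearest, at 29.8, 26.4 and 17.7 CPM in macrophages against 51.4, 54.7 and 45 CPM in synoviocytes, a log2 fold change of -1.06 ± 0.17 (SE, n = 3, edgeR adjusted p = 0.00027). The ratio of COL4A1 to COL4A2 counts was 0.222 to 0.488 in macrophages with MSC-CM, below that of synoviocytes in every library.

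In macrophages 6 collagen genes were higher, all at low levels. COL11A2, a chain of type XI collagen, was at 3.14, 3.44 and 2.42 CPM and had 0 to 2 counts in synoviocytes, at least 29.2-fold higher. COL23A1 was at 3.39, 2.08 and 2.23 CPM against 0.948, 0.404 and 0.757 CPM (log2 fold change 1.82 ± 0.36 (SE, n = 3), edgeR adjusted p = 0.000932), and COL9A2 at 4.5, 3.23 and 2.71 CPM against 1.55, 2.20 and 1.65 CPM (log2 fold change 0.93 ± 0.32 (SE, n = 3), edgeR adjusted p = 0.0236). COL17A1 was at least 1.88-fold higher, at 5 to 7 counts. COL2A1 had 19, 1 and 4 counts and COL20A1 18, 5 and 6 counts in macrophages, with the library of AG1 medium the highest in both. Without that library COL2A1 had too few counts to be tested. The calls of COL17A1 and COL26A1 were lost with the donor of the medium as a block (adjusted p 0.0503 and 0.0783).

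Against chondrocytes, 26 of 36 collagen genes were called, 23 lower and 3 higher in macrophages, with a share over all genes of 71.5%, 34.9% lower and 36.6% higher. The 3 higher genes were COL11A2, COL20A1 and COL23A1, with COL11A2 at least 30.3-fold higher. COL18A1 was again among the smallest changes, at -1.12 ± 0.18. The comparisons of macrophages with synoviocytes and with chondrocytes share the macrophage libraries.

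The stromal fibril genes varied together over the macrophage libraries. COL1A1 had 322 counts with TLR-MSC-CM of donor ORC, 8 with TLR-MSC-CM of donor AG1 and 55 to 132 in the other libraries with MSC-CM, and it had 5 counts with the cytokines only and 23 with no addition. Among the libraries with MSC-CM, those of the highest and the lowest count belonged to 1 condition. DCN and LUM, proteoglycan genes of fibroblasts, had 82 and 51 counts in the former library and 0 and 0 in the latter, and 14 to 105 and 1 to 22 counts in the other libraries with MSC-CM. The summed level of COL1A1, COL1A2, COL3A1, COL5A1, COL5A2, COL6A1 and COL6A2 was 33.6 CPM in the former and 2.74 CPM in the latter. That of a chosen list of other collagen genes (COL4A1, COL4A2, COL9A2, COL11A2, COL15A1, COL18A1 and COL23A1) was 68.5 and 70.9 CPM. The full stromal marker list summed to 265 to 480 CPM in macrophages, of which ENG alone held 259 to 474 CPM. ENG was at 274 to 409 CPM in synoviocytes, so it did not set the cell types apart. Every other marker of the list was at 5.17 CPM (the highest THY1 level) or less in all macrophage libraries. Whether stromal material had a part in the levels of COL1A1, COL1A2, COL3A1 and the type V and VI genes was not tested.

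**Figure D5:**
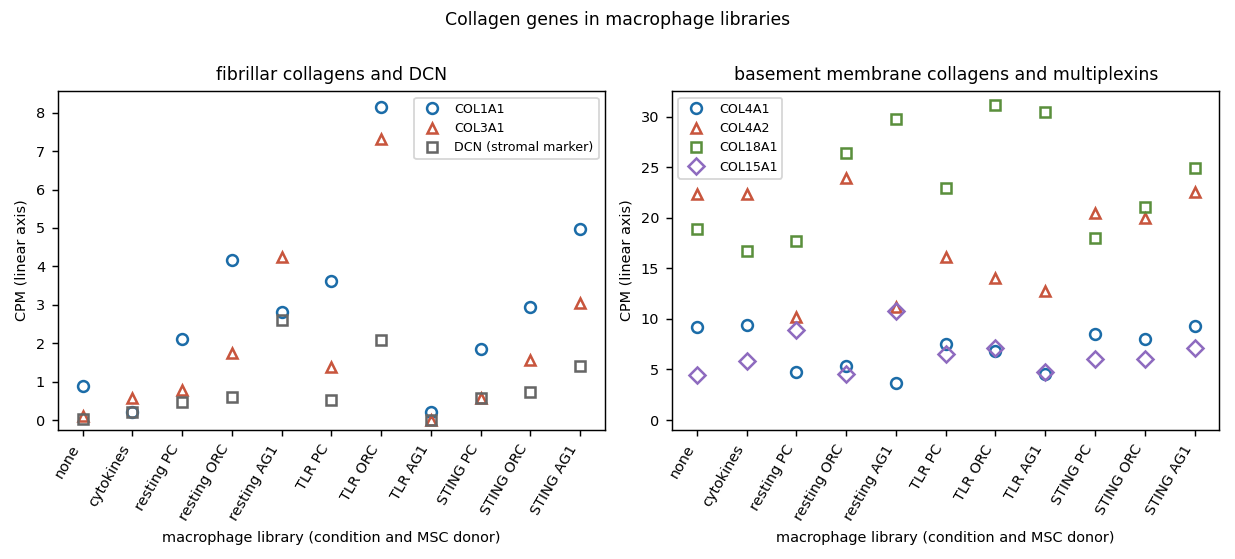
CPM (linear axis) in the 11 macrophage libraries, by condition and MSC donor of the medium: left COL1A1, COL3A1 and the stromal marker DCN, right the basement membrane genes COL4A1 and COL4A2 and the multiplexins COL18A1 and COL15A1. COL1A1 and COL3A1 are highest in the library with TLR-MSC-CM of donor ORC, and COL4A1 lies above the resting MSC-CM libraries in all 3 with STING-MSC-CM.

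With activated media, 0 of 30 collagen genes were called in macrophages with TLR-MSC-CM, with STING-MSC-CM or between them (edgeR, background 0% of 15052 genes in each). DESeq2 called 0, 5 and 33 genes in the same order, with 0 collagen genes in each. With the donor of the medium as a block, edgeR called 0, 80 and 336 genes, also with 0 collagen genes. In edgeR without the block, 0, 1 and 0 collagen genes had an unadjusted p under 0.05, against 2.13%, 4.76% and 6.6% of all genes. The single gene was COL4A1, which was at 9.31, 8.01 and 8.54 CPM with STING-MSC-CM (donors AG1, ORC and PC) and at 3.61, 5.31 and 4.78 CPM with resting MSC-CM. Its groups did not overlap, and the log2 fold change was 0.90 ± 0.22 (SE, n = 3, edgeR adjusted p = 0.907, or 0.0537 with the donor of the medium as a block). TLR-MSC-CM libraries were at 4.59, 6.86 and 7.48 CPM and overlapped those with resting MSC-CM (log2 fold change 0.42 ± 0.22 (SE, n = 3), edgeR adjusted p = 0.999). The cytokines only library was at 9.36 CPM and the no addition library at 9.18 CPM, both above the 3 libraries with resting MSC-CM. COL4A2 was at 22.6, 20.0 and 20.5 CPM with STING-MSC-CM and at 11.2, 23.9 and 10.2 CPM with resting MSC-CM, where the donor ORC library was high. Between the activated media COL4A1 and COL4A2 had the lowest unadjusted p (0.0517 and 0.0628), and COL9A1 (0.0741), with 0 to 7 counts, had the lowest with TLR-MSC-CM. COL20A1 followed COL4A1 with STING-MSC-CM (0.0838), at 0 to 5 counts against 5 to 18.

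Whether a medium changed collagen genes differently in different cell types was tested with interaction terms over the 27 libraries with MSC-CM. Of 39 collagen genes, 0 were called in any of the 6 interactions (edgeR, background 0% of 16584 genes in each), and 0, 1, 2, 0, 1 and 1 had an unadjusted p under 0.05 for TLR-MSC-CM and then STING-MSC-CM in the order chondrocytes against synoviocytes, macrophages against synoviocytes and macrophages against chondrocytes. The shares of all genes at that p were 1.72%, 3.99%, 2.64%, 1.74%, 4.38% and 3.59% in the same order. The change of COL4A1 with STING-MSC-CM was higher in macrophages than in synoviocytes by 0.93 ± 0.22 on the log2 scale (SE, edgeR unadjusted p = 0.00032, adjusted p = 1, DESeq2 adjusted p = 0.0289, the single collagen gene DESeq2 called in these tests), and higher than in chondrocytes by 0.82 ± 0.22 (SE, edgeR unadjusted p = 0.00112, adjusted p = 1). The genes with the lowest p for TLR-MSC-CM, COL16A1 and COL12A1, had at most 5 and 26 counts in any macrophage library. COL20A1 and COL14A1 (TLR-MSC-CM) and COL18A1 and COL4A6 (STING-MSC-CM) had the lowest p between chondrocytes and synoviocytes (0.0670 to 0.252).

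Without MSC medium, 1 of 14 macrophage collagen genes differed at least 2-fold between the cytokines only and the no addition library (background 0.387% of 12674 genes): COL1A1, with 5 and 23 counts. The mean of the resting MSC-CM libraries differed at least 2-fold from the cytokines only library in 2 of 17 genes (background 0.804% of 12936 genes), COL1A1 (a mean of 97 counts against 5) and COL3A1 (80.3 against 14), both higher. COL1A1 and COL3A1 are among the stromal fibril genes described above with DCN and LUM.

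Collagen chains need enzymes for folding, processing and cross-linking, and these were described from lists of genes. Of 17 tested genes of folding and modification, 1 was called in chondrocytes against synoviocytes: P4HA2, a prolyl hydroxylase subunit, was lower (344 ± 8.51 against 723 ± 56.7 CPM, SD, n = 3; log2 fold change -1.08). Of 13 genes of procollagen processing and cross-linking 8 were called, 1 higher and 7 lower in chondrocytes, with the same background of 18.1%. TLL1 and BMP1, related procollagen C-proteinases, had log2 fold changes of -5.05 ± 0.23 and -0.75 ± 0.13, and PCOLCE2 and PCOLCE, which enhance that cleavage, of -2.77 ± 0.21 and 0.60 ± 0.18. The other lower genes were the procollagen N-proteinase genes ADAMTS2 and ADAMTS14 and the lysyl oxidase family genes LOXL1 and LOXL3. The median over the 13 genes was -0.70. Of 9 collagen receptor genes ITGA10 (1.32 ± 0.32) and DDR2 (0.82 ± 0.21) were higher and MRC2, an endocytic collagen receptor, was lower (-0.54 ± 0.16).

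In macrophages against synoviocytes, 14 of the 17 folding genes were lower and 1 was higher, 11 of the 13 processing genes were lower and 1 was higher, and 5 of the 9 receptors were lower and 1 was higher, beside 35.1% lower and 36.6% higher over all genes tested. LOXL2 and LOX, which cross-link collagen, were at 0.798 ± 0.118 and 16.2 ± 2.00 CPM in macrophages (SD, n = 3) and at 486 ± 68.7 and 1203 ± 33.9 CPM in synoviocytes. PCOLCE2 was the higher processing gene, and LAIR1, an inhibitory collagen receptor of leukocytes, the higher receptor. Against chondrocytes the counts were 14 lower and 1 higher, 9 lower and 2 higher, and 5 lower and 1 higher, beside 34.9% lower and 36.6% higher over all genes. In the comparisons of agonists and of media, 0 genes of these 3 lists were called (edgeR, DESeq2 0 as well), with 0 to 2 genes of a list at an unadjusted p under 0.05.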

How the data were processed

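Read counts per gene were deposited by the authors in 2 tables, for MSC and for the joint cells, which were made separately. According to the study's methods and processing notes, the authors removed adapters (cutadapt 1.12), mapped reads with STAR on the horse genome EquCab3.0 and assigned them to protein coding Ensembl genes (HTSeq 0.11.0). Deposited counts of 1000000 or more are rounded to the nearest 10000, which applied to 41 values, 36 of them of COL1A1, COL1A2 or COL3A1. Columns were matched to samples by their labels, and 0 columns were left unmatched.

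Each fit kept genes with a total of at least 10 counts, in R 4.3.3, with the quasi-likelihood test of edgeR 4.0.16 (TMM scaling, 0.05 as the adjusted threshold), one fit per cell type over the 9 libraries of the replicated conditions (all 12 libraries for CpG), one over the 9 resting MSC-CM libraries for cell types and one over 27 libraries for interactions. DESeq2 1.42.0 (the study used DESeq2), median-ratio scaling, other filters, the donor as a block and libraries left out were alternatives. MSC and joint cells are in separate tables and were set side by side without a test. The script was tested on simulated data. Replicates share horses and cultures as described, so p-values measure the spread between donors' MSC or media only. Depth of 23525704 to 54103873 counts puts 3 counts, the floor used for bounds, at about 0.1 CPM, and floors cover counting error only.

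Donor labels paired the libraries of MSC, chondrocytes and macrophages. Deviations of libraries with the same donor correlated by 0.636 to 0.835 in MSC, 0.355 to 0.718 in chondrocytes and 0.138 to 0.301 in macrophages, and by -0.166 to 0.141 in synoviocytes, where they do not pair.

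The members and the gene lists were chosen with earlier results of these data known. Named are 19 representatives of the classes, genes past the test (up to 10 per comparison by p), otherwise the 2 genes with the lowest p, between single libraries those at least 2-fold apart with 10 counts or more, and up to 4 genes past the test of the processing and receptor lists. Named beyond that rule, after their values were seen, were PCOLCE, LOXL1, LOXL3, ADAMTS2, ADAMTS14, ITGA10, DDR2, MRC2 and LAIR1, the collagen genes that stood apart by donor or in macrophages, and those counted by donor direction. Gene lengths, coordinates and sequences were not used here. Neighbouring genes were read from the RefSeq table of TB-T2T, in which all 41 symbols matched. Agonist and cytokine doses differ between the sources and are not given.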

Additional observations from a re-analysis of the deposited data

How the results depend on the processing

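Leaving out a replicate gave 8 to 13 called collagen genes for chondrocytes against synoviocytes, 27 to 30 for macrophages against synoviocytes and 24 to 26 for macrophages against chondrocytes, and 0 to 0 in every comparison of agonists or media. With the donor as a replicate block the counts were 10, 29 and 25, and 0 in all treatment comparisons. With DESeq2 they were 11, 28 and 25, and 1 (COL4A1) for the change with STING-MSC-CM in macrophages against synoviocytes, where edgeR called 0. With 27 libraries and the medium as a term, 20 collagen genes were called in chondrocytes against synoviocytes. Without the ORC libraries (added after seeing the data) there were 12. The share of all genes was not taken for these fits or for those without a replicate, so nothing about collagen genes is drawn from the change in counts. In macrophages, total count scaling and a pseudocount of 2 CPM each left 0 genes at least 2-fold apart between cytokines only and no addition, and the pseudocount of 2 CPM left 1 between resting MSC-CM and cytokines only. In MSC with CpG, COL20A1 went from a log2 fold change of 2.32 to -0.089 without donor 92 (also added), at 0 to 6 counts. Of the other values of single genes, 917 kept direction and side of the threshold, 7 lost the call (COL1A1 and COL1A2, as described) and 1 gained it. Of the medians over collagen genes, 49 moved and 141 did not. The cause was not tested. Fits without a replicate or without a filter were not run for the interactions.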
